A study of Homo sapiens with 8 samples.

Results

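The Fc receptors and Fc receptor-like genes were followed on Affymetrix U133 Plus 2.0 oligonucleotide arrays of Reh cells, an established line of leukaemic B cell precursors. The members were FCER1G, FCGR2A, FCER2, FCRL1, FCRL2, FCRL3, FCRL4, FCRL5, FCRLA and FCRLB, and every probe set annotated to exactly 1 of these symbols was taken. That gave 27 probe sets of 10 genes, out of 41091 probe sets of 19775 genes with exactly 1 symbol each. All 8 arrays were of Reh cells, in 4 groups of 2 biological duplicates numbered 1 and 3: cells given control constructs (mock), IRF5-4D, IKKβ(EE), or IRF5-4D together with IKKβ(EE), called the combination here. IRF5-4D is a form of the transcription factor IRF5 that is always on, and IKKβ(EE) is such a form of the kinase IKKβ, which releases NF-κB from its inhibitors. The labels do not give the time after transfection or the share of transfected cells. Values are log2 RMA expression values, so a difference of 1 is a 2-fold change.

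Receptors for the constant part of antibodies couple antibody binding to cell signalling. Activating Fc receptors signal through an ITAM, a tyrosine motif that Src family kinases phosphorylate and to which the kinase SYK binds, and several of them borrow the ITAM of the common gamma chain encoded by FCER1G. Inhibitory receptors such as FCGR2B, the main Fc receptor of B cells, carry an ITIM instead. The Fc receptor-like genes are relatives of the IgG receptors: FCRL1 to FCRL5 encode surface proteins of the B lineage, whereas FCRLA and FCRLB encode proteins that stay inside the cell.

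Of the 10 genes, 3 rose with IRF5-4D: FCER1G, FCGR2A and FCRLA. The same 3 were high in the combination, none of the members passed the test with IKKβ(EE) alone, and FCER1G was the member called for a level in the combination above the sum of both single constructs. The remaining 7 genes were not called in any of the 7 comparisons. The RefSeq promoter sequences of the 3 genes that rose are shown first because their starts lie near each other on chromosome 1, followed by that of FCRL1, a member that was not called but whose promoter holds the same 2 motifs as that of FCRLA. Each is given 5′ to 3′ in GRCh38.p14, from 250 bases before to 50 bases after the annotated start. Capitals mark matches to the IRF core (GAAA, any 2 bases, GAAA), part of the sites that interferon regulatory factors bind, and to the PU.1 site GAGGAAGT, on either strand.
FCER1G (chr1:161215045-161215344, + strand): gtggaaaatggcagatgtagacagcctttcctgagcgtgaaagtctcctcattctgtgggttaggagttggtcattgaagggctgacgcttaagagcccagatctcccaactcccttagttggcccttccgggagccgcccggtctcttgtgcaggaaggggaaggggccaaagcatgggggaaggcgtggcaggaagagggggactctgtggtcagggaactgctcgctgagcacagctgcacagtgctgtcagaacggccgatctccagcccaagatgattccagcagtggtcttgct
FCGR2A (chr1:161505207-161505506, + strand): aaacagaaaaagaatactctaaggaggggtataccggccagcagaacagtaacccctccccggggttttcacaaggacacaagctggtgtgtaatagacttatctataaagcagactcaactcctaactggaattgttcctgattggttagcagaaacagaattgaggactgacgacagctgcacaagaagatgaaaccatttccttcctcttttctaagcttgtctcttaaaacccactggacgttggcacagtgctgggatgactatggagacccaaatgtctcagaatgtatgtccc
FCRLA (chr1:161706979-161707278, + strand): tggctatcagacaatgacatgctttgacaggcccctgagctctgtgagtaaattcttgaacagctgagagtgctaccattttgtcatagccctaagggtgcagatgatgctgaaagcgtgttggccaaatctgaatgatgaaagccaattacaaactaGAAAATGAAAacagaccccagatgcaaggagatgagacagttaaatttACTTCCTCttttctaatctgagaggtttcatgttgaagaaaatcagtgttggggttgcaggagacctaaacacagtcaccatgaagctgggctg
FCRL1 (chr1:157820071-157820370, - strand): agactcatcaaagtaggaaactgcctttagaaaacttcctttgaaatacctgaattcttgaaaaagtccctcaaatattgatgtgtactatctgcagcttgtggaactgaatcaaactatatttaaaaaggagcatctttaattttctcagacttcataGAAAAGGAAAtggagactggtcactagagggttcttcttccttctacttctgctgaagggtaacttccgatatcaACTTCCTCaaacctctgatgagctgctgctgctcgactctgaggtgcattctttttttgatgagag

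The FCRLA window held GAAAATGAAA at -92, counted from the annotated start to the first base of the match, and ACTTCCTC, the PU.1 site read on the other strand, at -44. The FCRL1 window held GAAAAGGAAA at -91 and ACTTCCTC at -16. No match lay in the windows of FCER1G and FCGR2A, which says only that these letters are not in those 300 bases. Over 35114 windows of the same length in the RefSeq table, 3.57% held the IRF core and 2.59% held GAGGAAGT on either strand. The κB consensus, searched on both strands and present in 11.3% of windows, was found in 0 windows of the 3 genes that rose, and in windows of FCER2 and FCRL3. The same FCER2 window also held the IRF core, GAAAAAGAAA at -58, so 3 members had that core, of which FCRLA was called and FCRL1 and FCER2 were not. All 10 members had windows in the table, 13 in all because FCER2 and FCRLB have several starts, and none of the matches overlapped another. A match is a run of letters and was not tested as a binding site.

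The arrays resembled each other closely, with correlations of 0.994 to 0.996 between the 2 arrays of a group over the fitted probe sets and array medians of 5.10 to 5.14. The transfected kinase gene was read by the IKBKB probe set 211027_s_at at 12.57 and 10.98 with IKKβ(EE) and at 11.11 and 9.33 in the combination, against 4.06 to 4.80 on the 4 arrays without that construct. The other 2 IKBKB probe sets stayed between 7.15 and 9.17. The IRF5 probe set 205469_s_at read 6.93 and 7.06 in mock, 7.15 and 7.25 with IRF5-4D, 6.95 and 7.13 with IKKβ(EE), and 8.002 and 7.82 in the combination. It was called in the combination (0.92 above mock, limma adjusted p = 0.00586) and not with IRF5-4D alone (0.20, adjusted p = 0.975). The combination was also called above IRF5-4D alone (0.71, limma adjusted p = 0.0379) and above IKKβ(EE) alone (0.88, adjusted p = 0.0121) on this probe set. Probe set 205468_s_at read 5.65 and 5.66 with IRF5-4D and 5.56 and 5.604 in the combination, above the 4.82 to 5.36 of the 4 arrays without IRF5-4D, and was not called (0.57 and 0.49 above mock, limma adjusted p = 0.701 and 0.195). Probe set 239412_at read 4.03 to 4.58 and was not called against mock. Whether the IRF5 probe sets lie in the transfected sequence is not stated, so they do not check the label. For the cell type, 9 of the 10 measured B lineage and precursor B cell markers, among them PAX5, EBF1 and DNTT, lay above the array median on all 8 arrays, and VPREB1 lay below it. Of 9 measured myeloid markers, 6 lay below the array median on all arrays, including CD14, LYZ and S100A8. ITGAM and CSF1R lay above the median on all 8 arrays, and MPO on 6. A second ITGAM probe set, 205786_s_at, read -1.40 for IRF5-4D minus IKKβ(EE) (SE 0.21, limma adjusted p = 0.0192), a call lost without any array of those groups. The mean level of those 9 ranged from 4.53 to 4.58 on the mock arrays, from 4.44 to 4.52 with IRF5-4D, from 4.35 to 4.47 with IKKβ(EE) and from 4.29 to 4.45 in the combination. Of the 8 T and NK cell markers, 6 lay below the median on all arrays, with mean levels of 4.51 to 4.58 in mock, 4.51 to 4.58 with IRF5-4D, 4.476 to 4.482 with IKKβ(EE) and 4.58 to 4.71 in the combination. Of the 5 measured mast cell and basophil markers, 2 lay below the median on all arrays and 2 above it. Below were FCER1A, the IgE-binding chain that pairs with FCER1G, and CPA3. Above were TPSAB1 (5.38 to 5.76) and the receptor gene KIT, while HDC (4.83 to 5.41) was above on 3 arrays. KIT was called with IRF5-4D at 1.87 above mock (SE 0.17, limma adjusted p = 0.00192), and read 1.75 without a call when IRF5-4D replicate 1 was left out. In the combination KIT was called 1.41 lower than with IRF5-4D alone (limma adjusted p = 0.0054). KIT was the only gene called in the mast cell and basophil list. The mean level of that list was 5.04 to 5.10 in mock, 5.38 to 5.50 with IRF5-4D, 5.05 to 5.13 with IKKβ(EE) and 4.98 to 5.15 in the combination. The part of that list in the results on FCER1G was not tested.

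With the active factor alone, IRF5-4D minus mock, 6 of the 27 member probe sets were called, all of them higher. Over all 41091 probe sets, 0.243% were called in this comparison and 0.238% were called higher. The median difference was 0.04 over the members and -0.012 over all probe sets, since 21 member probe sets did not pass (from -0.45 to 0.33, limma adjusted p from 0.935 to 1).

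FCGR2A encodes an activating receptor of low affinity for IgG that carries its own ITAM-like sequence. Its probe set 203561_at read 4.55 and 4.56 on the mock arrays, 7.41 and 7.30 with IRF5-4D, 4.49 and 4.59 with IKKβ(EE), and 7.05 and 7.09 in the combination. The 4 arrays with IRF5-4D lay above the 4 arrays without it, with a wide gap and tight duplicates. Against mock, IRF5-4D raised it by 2.80 (SE 0.11, n = 2 a group; limma adjusted p = 4.06e-05), a 6.98-fold rise. In such bulk samples, more cells that express a gene and more RNA per cell cannot be told apart. The combination raised it by 2.52 (SE 0.11, limma adjusted p = 1.12e-05). With IKKβ(EE) alone the difference was -0.01 (95% interval -0.27 to 0.24).

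Adding IKKβ(EE) to IRF5-4D left FCGR2A 0.29 lower, with a 95% interval of -0.55 to -0.03, and the test was not passed after adjustment over all probe sets (limma adjusted p = 0.341). The interaction (the difference of the combination from mock, less the differences of each single construct from mock) read -0.28 (SE 0.16, adjusted p = 0.872). A second FCGR2A probe set, 1565673_at, was not called: it read 2.96 and 3.06 in mock, 3.08 and 3.27 with IRF5-4D, 2.86 and 2.80 with IKKβ(EE), and 2.93 and 3.04 in the combination, all below the lower quartile of the arrays. A probe set annotated to both FCGR2A and FCGR2C, 1565674_at, is no member and stayed between 3.13 and 3.57. FCGR2A is a near copy of FCGR2B and FCGR2C, so 203561_at may also bind their transcripts. With the mean of both FCGR2A probe sets the rise with IRF5-4D was 1.49 and kept its call.

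FCRLA encodes the intracellular relative of the IgG receptors that binds immunoglobulin within B cells. On 235372_at it read 4.80 and 4.38 in mock, 7.59 and 7.37 with IRF5-4D, 4.71 and 4.58 with IKKβ(EE), and 7.70 and 7.21 in the combination. On 235401_s_at the arrays read 3.28 and 3.13 in mock, 6.57 and 5.82 with IRF5-4D, 2.84 and 2.92 with IKKβ(EE), and 5.96 and 5.88 in the combination. Probe set 235400_at, which was designed on the same accession as 235401_s_at and so shares its source, read 3.53 and 3.67, then 7.06 and 6.17, then 4.03 and 3.92, then 7.33 and 6.17 in the same order of groups. On all 3 probe sets the arrays with IRF5-4D and those without did not overlap, and in the groups with IRF5-4D the duplicates of 235400_at were the widest apart of the 3.

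Against mock, FCRLA rose with IRF5-4D by 2.89 (SE 0.19) on 235372_at, 2.99 (SE 0.21) on 235401_s_at and 3.02 (SE 0.36) on 235400_at, which are 7.44-fold, 7.94-fold and 8.09-fold rises (limma adjusted p = 0.000311, 0.000375 and 0.00957). In the combination the rises were 2.86, 2.71 and 3.15 (limma adjusted p = 9.3e-05, 0.000195 and 0.00176). The differences between the combination and IRF5-4D alone were -0.03 (95% interval -0.47 to 0.41), -0.27 (-0.75 to 0.20) and 0.14 (-0.67 to 0.94), and none was called. These intervals do not show that the levels were equal. With IKKβ(EE) alone FCRLA lay 0.06 above, 0.32 below and 0.38 above mock on the 3 probe sets, with limma adjusted p from 0.865 to 0.984. The call of 235400_at with IRF5-4D was lost without IRF5-4D replicate 1 (2.58, adjusted p = 0.134), mock replicate 1 (2.94, adjusted p = 0.0975) or mock replicate 3 (3.09, adjusted p = 0.0726), while the calls of 203561_at, 235372_at and 235401_s_at against mock were kept in every fit that left out 1 array.

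FCER1G, the common gamma chain, was called on both of its probe sets. On 204232_at it read 4.56 and 4.73 in mock, 6.55 and 6.34 with IRF5-4D, 4.69 and 4.67 with IKKβ(EE), and 9.43 and 8.70 in the combination. Probe set 1554899_s_at gave 3.92 and 3.68 in mock, 5.16 and 5.03 with IRF5-4D, 3.68 and 3.91 with IKKβ(EE), and 8.70 and 8.21 in the combination. The combination arrays were the highest, the IRF5-4D arrays lay between them and the rest without overlap, and the mock and IKKβ(EE) arrays overlapped. On the combination arrays, replicate 1 was higher than replicate 3 on both probe sets, as it was for the IKBKB probe set given above; the part of the construct level in this was not tested.

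IRF5-4D alone raised FCER1G by 1.80 (SE 0.21) or 3.49-fold on 204232_at and by 1.29 (SE 0.18) or 2.45-fold on 1554899_s_at (limma adjusted p = 0.0089 and 0.0231). In the combination it rose by 4.42 (SE 0.21) or 21.4-fold and by 4.65 (SE 0.18) or 25.2-fold (limma adjusted p = 1.24e-05 and 7.91e-06). The call with IRF5-4D alone was lost on both probe sets without either IRF5-4D array or either mock array, with differences of 1.70 to 1.91 on 204232_at and 1.17 to 1.41 on 1554899_s_at and adjusted p of up to 0.164 and 0.299. The latter also missed the threshold without either IKKβ(EE) array (1.29, adjusted p = 0.0514). The calls of the combination against mock were kept in each of those fits.

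Adding IKKβ(EE) to IRF5-4D raised FCER1G by a further 2.62 (SE 0.21) on 204232_at and 3.36 (SE 0.18) on 1554899_s_at, or 6.14-fold and 10.3-fold (limma adjusted p = 0.000909 and 9.05e-05). IKKβ(EE) alone gave 0.03 (95% interval -0.44 to 0.51) and -0.01 (-0.41 to 0.39). The interaction was 2.59 (SE 0.30, limma adjusted p = 0.0256) and 3.37 (SE 0.25, adjusted p = 0.00198), so the combination exceeded the sum of both log2 differences by 6.01-fold and 10.3-fold. On 204232_at the interaction passed without either combination array and lost its call without any other array (2.48 to 2.69, adjusted p from 0.0714 to 0.161). On 1554899_s_at it was called in each of the fits without 1 array, from 3.12 to 3.62. The interaction was thus called for 2 of the 27 member probe sets, against 0.0803% of all probe sets in either direction and 0.0535% higher.

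Of the markers of later B cell stages, MS4A1 and IRF4 were called higher in the combination, and 5 of the 7 measured were not. The mean level of the 3 measured mature B cell markers ranged from 4.19 to 4.22 in mock, 4.66 to 4.72 with IRF5-4D, 5.0001 to 5.40 with IKKβ(EE) and 6.02 to 6.50 in the combination. Of these 3, MS4A1, which encodes the surface protein CD20, was called on 4 probe sets in the combination, by 2.43 to 6.35, and on 1 with IKKβ(EE) alone, a call lost without any 1 of 5 arrays, while CR2 read 3.30 to 3.66 and CD27 5.67 to 5.87 over the arrays. The mean of these 3 markers was above its mock range with IKKβ(EE) alone and with IRF5-4D alone. On 228592_at, the MS4A1 probe set in that mean, IRF5-4D alone read 1.59 above mock without a call (limma adjusted p = 0.684). The 4 plasma cell markers read 6.98 to 7.30 in mock, 7.12 to 7.27 with IRF5-4D, 7.33 to 7.34 with IKKβ(EE) and 7.81 to 8.23 in the combination. In the combination IRF4 was called on 204562_at (2.81, SE 0.33, limma adjusted p = 0.00206). Its other probe sets were not called, with means in mock and in the combination of 4.57 and 5.45 on 216986_s_at and 2.96 and 2.79 on 216987_at. The NK cell gene NKG7 was called in the combination too (1.34, SE 0.19, limma adjusted p = 0.00545). The part of these genes in the rise of FCER1G was not tested.

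**Figure D1:**
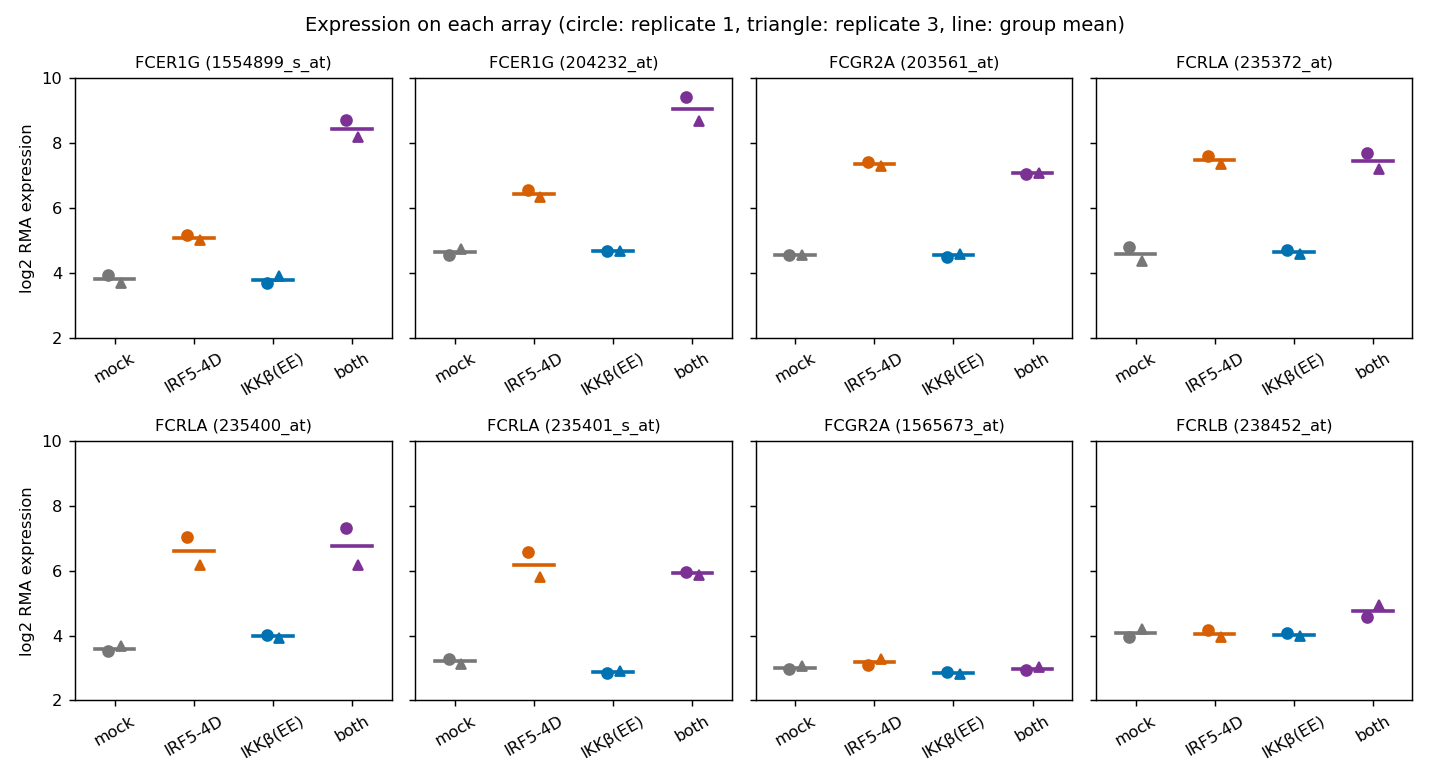
Log2 RMA expression on each of the 8 arrays for the called probe sets of FCER1G, FCGR2A and FCRLA, with FCRLB and the second FCGR2A probe set for comparison; points are arrays and lines are means of 2. FCGR2A and FCRLA are high on the 4 arrays with IRF5-4D, while FCER1G is higher in the combination (8.70 and 9.43 on 204232_at) than with IRF5-4D alone (6.34 and 6.55).

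The other comparisons called all 3 genes, FCER1G alone or none. IRF5-4D minus IKKβ(EE) called 6 member probe sets, all higher with IRF5-4D, against 0.594% of all probe sets called and 0.258% called higher. These differences were 2.82 for FCGR2A, 2.64 to 3.31 for FCRLA and 1.30 and 1.77 for FCER1G. The FCER1G calls here were lost without any 1 array of those groups, at 1.67 to 1.88 on 204232_at and 1.18 to 1.41 on 1554899_s_at. The call of FCRLA 235400_at was lost without either IKKβ(EE) array or IRF5-4D replicate 1, at 2.20 to 2.69. The combination minus IKKβ(EE) called 6, all higher, against 1.38% of all probe sets called and 1.06% called higher. The combination minus mock called 6, all higher, against 2.55% called and 2.04% called higher. For the combination minus IRF5-4D, 2 member probe sets were called higher, both of FCER1G, against 1.03% of all called and 0.84% called higher. IKKβ(EE) minus mock called 0 of the 27 in limma, against 0.37% of all, each of those higher, with member differences from -0.37 to 0.38. These comparisons share arrays, the mock arrays in particular, and are not independent of each other.

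**Figure D2:**
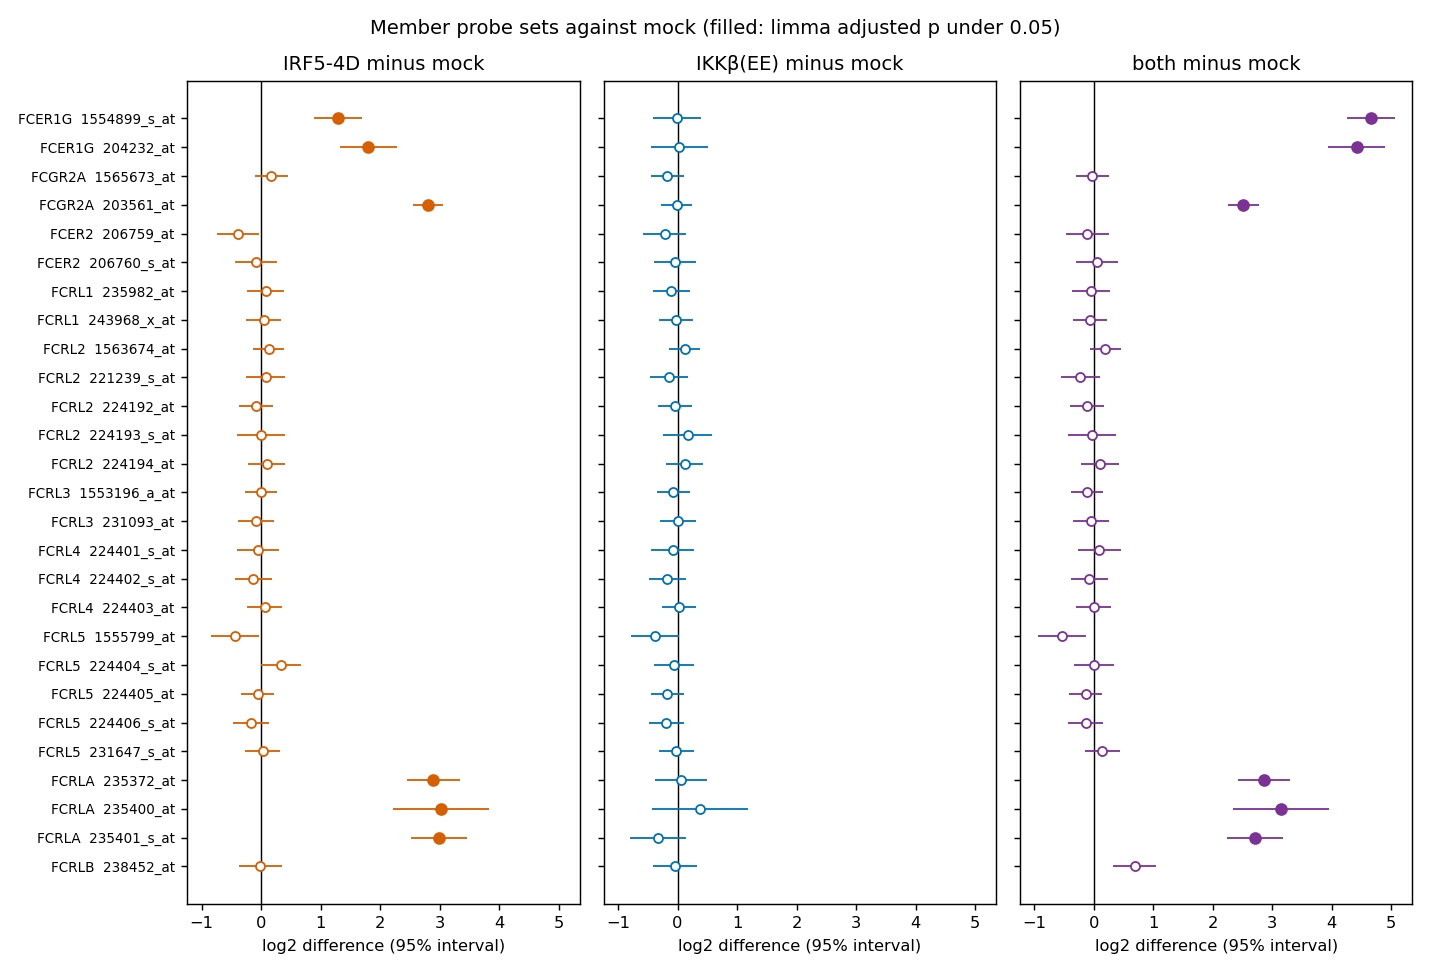
Log2 difference from mock of all 27 member probe sets for IRF5-4D, IKKβ(EE) and the combination, with 95% intervals from the limma fit; filled points were called. With IRF5-4D and in the combination 6 probe sets of FCER1G, FCGR2A and FCRLA are filled, from 1.29 to 4.65, and with IKKβ(EE) 0 of 27 were called.

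Among the genes that were not called, FCRLB came closest. It encodes the other intracellular Fc receptor-like protein, and its 1 probe set read 3.95 and 4.20 in mock, 4.17 and 3.96 with IRF5-4D, 4.09 and 3.98 with IKKβ(EE), and 4.56 and 4.96 in the combination. Both combination arrays were above the other 6, yet the difference from mock of 0.68 (95% interval 0.32 to 1.05) had a limma adjusted p of 0.0689, and ranged from 0.49 to 0.88 with 1 array left out. FCER2, which encodes the low-affinity IgE receptor CD23 of mature B cells, read 3.88 to 4.56 and 5.09 to 5.52 over the arrays on its 2 probe sets. Its differences between groups ran from -0.39 to 0.28, with adjusted p of at least 0.541.

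The surface receptors FCRL1 to FCRL5 had 17 probe sets, and 0 of these were called in any comparison. FCRL1, a B cell receptor with activating motifs, read 2.94 to 3.41 over the arrays, FCRL3 2.93 to 3.45 and FCRL4, a receptor of memory B cells in mucosal tissue, 2.89 to 3.61. FCRL2 read 3.49 to 5.46 on its 5 probe sets, with differences from -0.30 to 0.21. FCRL5, a receptor of mature B and plasma cells, read 2.40 to 5.03 on its 5 probe sets. The FCRL5 probe set 1555799_at gave the largest difference among them, -0.54 (SE 0.18, adjusted p = 0.189) in the combination, from 3.75 and 4.35 in mock to 3.51 and 3.51, and without mock replicate 1 it read -0.84 and was called (adjusted p = 0.0313). Of the 20 probe sets of the 7 genes without a call, 18 lay below the array median on all 8 arrays and 9 below the lower quartile.

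**Figure D3:**
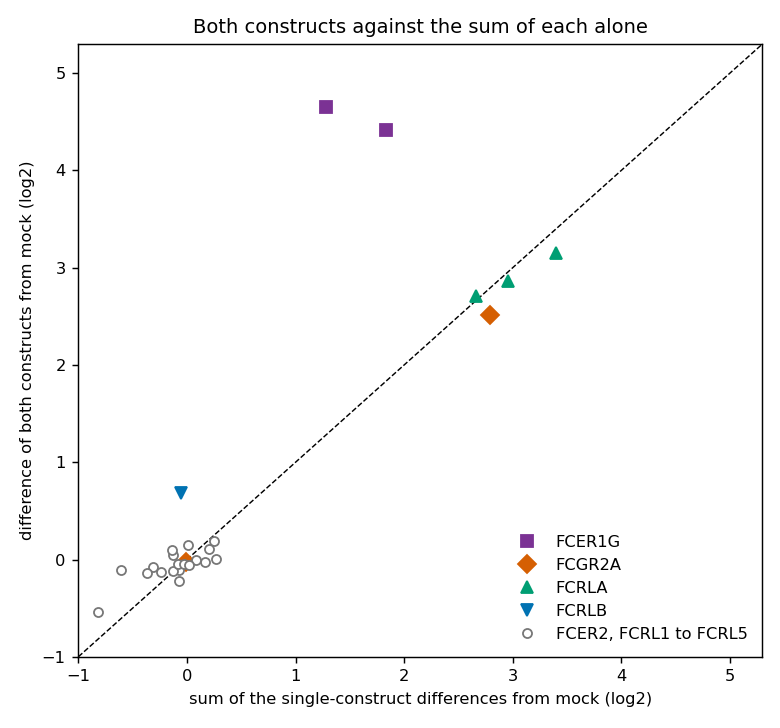
Each point is a member probe set, with the sum of the log2 differences of IRF5-4D and IKKβ(EE) from mock on the horizontal axis and the log2 difference of the combination from mock on the vertical axis; the dashed line marks equality. The FCER1G probe sets lie 2.59 and 3.37 above the line, and those of FCGR2A and FCRLA lie near it.

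The pattern of the 3 genes over the 8 arrays was also compared with that of 560 other genes whose group means spanned at least 1 on the log2 scale. FCER1G on 204232_at was most like FSD1L (Pearson r = 0.997), CA11 (0.995) and the lymphotoxin alpha gene LTA (0.99). FCGR2A on 203561_at was most like the antiviral GTPase gene MX1 (0.985), RAB11FIP1 (0.983) and the WNT inhibitor gene DKK1 (0.981). FCRLA on 235372_at was most like MX1 (0.994), FRMD3 (0.99) and DKK1 (0.989), so MX1 and DKK1 stood among the 3 nearest for both. FCGR2A and FCRLA correlated with each other at 0.961 to 0.992, and FCER1G correlated with them at 0.729 to 0.865. These are descriptions over 8 arrays that fall into 4 groups, and many genes reach such values: 41, 14 and 21 genes had r above 0.95 with FCER1G, FCGR2A and FCRLA.

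The other Fc receptors were read from a list of 15 genes, of which 11 had 20 probe sets. With IRF5-4D, 3 of these probe sets were called higher and 0 lower, which is 15% of the list against 0.243% of all probe sets called, with a median of -0.063 over the list and -0.012 over all. The combination called 2 of the 20, both of FCGR2C, or 10% against 2.55% of all. Those called with IRF5-4D belong to FCGR2B and FCGR2C. FCGR2B, the inhibitory IgG receptor, read 3.81 and 3.90 in mock, 5.07 and 4.73 with IRF5-4D, 3.52 and 3.71 with IKKβ(EE), and 3.92 and 3.97 in the combination on 210889_s_at. It rose by 1.05 with IRF5-4D (SE 0.14, limma adjusted p = 0.0216) and was 0.96 lower in the combination than with IRF5-4D alone (limma adjusted p = 0.0158). Both FCGR2B calls were lost without either IRF5-4D array, the first also without either mock array and the second without either combination array, with differences of 0.88 to 1.21 and -1.13 to -0.79. In fits of only the 2 groups compared the adjusted p was 0.0854 and 0.0556. The interaction for FCGR2B was -0.72 (SE 0.20, adjusted p = 0.477).

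FCGR2C, a copy of the IgG receptor genes, rose on 210992_x_at by 1.64 (SE 0.18, limma adjusted p = 0.00573) with IRF5-4D and by 1.45 (SE 0.18, adjusted p = 0.00281) in the combination. On 211395_x_at the rises were 1.84 (SE 0.23) and 1.57 (SE 0.23). Another FCGR2C probe set, 211396_at, stayed between 5.25 and 5.74 on all arrays. Names ending in _x_at mark probe sets that may bind several transcripts, and FCGR2A, FCGR2B and FCGR2C cannot be told apart with confidence on them. The calls with IRF5-4D were lost on 210992_x_at without IRF5-4D replicate 1 (1.44, adjusted p = 0.0757) or mock replicate 1 (1.60, adjusted p = 0.0608), and on 211395_x_at without either IRF5-4D array (1.95 and 1.72) or mock replicate 1 (1.58). The call of 211395_x_at in the combination was lost without combination replicate 1 (1.52, adjusted p = 0.0515) or mock replicate 1 (1.31, adjusted p = 0.0502).

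Partners and signalling genes were read from a list of 29, of which 27 had 68 probe sets. None of them was called in limma with IRF5-4D or with IKKβ(EE), while the combination called 4 higher and 1 lower, or 7.35% of the 68 against 2.55% of all probe sets. LYN, the Src family kinase that phosphorylates ITAMs and ITIMs in B cells, was higher on its 3 probe sets. On 210754_s_at LYN read 8.21 and 8.23 in mock, 8.52 and 8.49 with IRF5-4D, 8.26 and 8.08 with IKKβ(EE), and 10.32 and 9.92 in the combination, a rise of 1.90 (SE 0.15, limma adjusted p = 0.000195). Its interaction was 1.66 (SE 0.21, limma adjusted p = 0.0323) on that probe set, where the call was lost in 7 of the 8 fits without 1 array (1.46 to 1.75) and kept without combination replicate 3, and 1.58 and 1.49 without a call on the others (adjusted p = 0.0877 and 0.131).

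HCST, an adaptor of NK cell receptors, rose by 0.87 (SE 0.17, limma adjusted p = 0.0322) in the combination, a call lost without any 1 of 6 arrays (0.66 to 0.87, adjusted p of up to 0.168). CD247, the zeta chain that can replace the gamma chain in Fc receptors of NK cells, fell by 1.56 (SE 0.27, limma adjusted p = 0.0178) on 210031_at, and read -0.13 on its other probe set. That call was lost without combination replicate 1 (-1.25, adjusted p = 0.107) or mock replicate 1 (-1.21, adjusted p = 0.104), and in a fit of only the 2 groups compared (adjusted p = 0.0778). SYK, the kinase that binds phosphorylated ITAMs, had 4 probe sets and no call, with differences from -0.86 to 0.73 and adjusted p of at least 0.0972.

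The 3 genes that rose are near neighbours on chromosome 1 in the RefSeq order of GRCh38.p14, a stretch looked at after their values were seen. From FCER1G to FCRLB the table lists 64 genes, 4 of them members, and 10 others had 21 probe sets. Of those 21, 4 were called higher with IRF5-4D and 0 lower, against 0.243% of all probe sets called. They were the 3 of FCGR2B and FCGR2C and 1 of HSPA6, an inducible heat shock gene that is the protein-coding neighbour of FCGR2A. HSPA6 read 5.21 and 5.06 in mock, 6.96 and 7.10 with IRF5-4D, 5.20 and 5.25 with IKKβ(EE), and 6.10 and 6.19 in the combination on 213418_at. It rose by 1.89 (SE 0.12, limma adjusted p = 0.000239) with IRF5-4D and by 1.01 (SE 0.12, adjusted p = 0.00253) in the combination, whereas its probe set 117_at, with 0.62 and 0.50, was not called.

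The genes APOA2, TOMM40L, NR1I3, PCP4L1, SDHC and CFAP126, which lie between FCER1G and FCGR2A, had no call in any of the comparisons, nor had FCGR3B. The genes called against mock in this stretch were thus FCER1G at its start and the run from FCGR2A to FCRLA, with FCGR3B inside it not called. The 5 genes FCRL1 to FCRL5 form another cluster on chromosome 1, and FCER2 lies on chromosome 19. FCGR2B, FCGR2C and FCGR2A are similar in sequence, so their probe sets are not independent of each other.

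**Figure D4:**
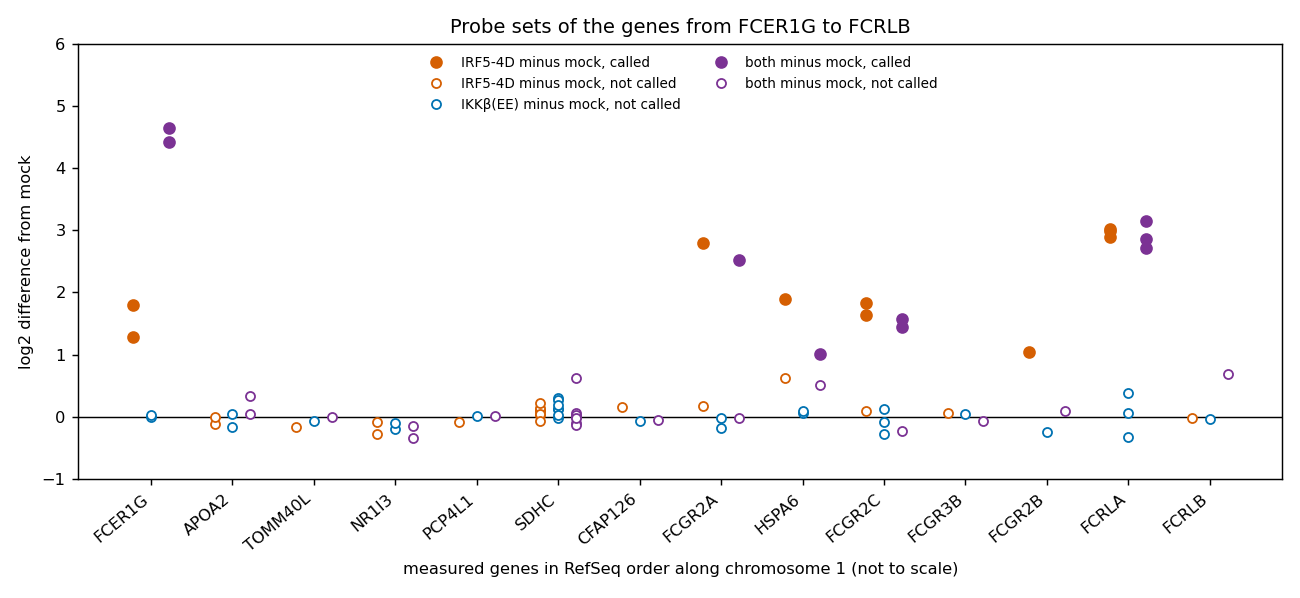
Log2 difference from mock of every probe set of the measured genes from FCER1G to FCRLB in RefSeq order, with IRF5-4D, IKKβ(EE) and the combination in different colours and filled points for called probe sets. Filled points stand at FCER1G and from FCGR2A to FCRLA, reaching 4.65 for FCER1G in the combination, and 0 probe sets here were called with IKKβ(EE).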

How the data were processed

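The deposited values are log2 expression levels. Per the submitters' processing notes the authors used RMA, a method that by its usual steps subtracts background, equalises the arrays' distributions and summarises probes. The RMA version was not given in those notes. There were 54675 probe sets. The 62 control probe sets and 13522 without exactly 1 symbol in the 2016 annotation were not fitted, which left 41091. No filter on level was applied. Every probe set was fitted in limma 3.58.1 (R 4.3.3; lmFit, eBayes) with a model of 4 group means on all 8 arrays, with 4 residual degrees of freedom, and 7 contrasts. P values were adjusted by Benjamini-Hochberg over all 41091 within a contrast, and a probe set was called at an adjusted p under 0.05. P values measure the spread between duplicates, whose cultures are not described further; the number of arrays limits the precision.

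The text names all members, pathway genes called in any contrast, FCGR2B and SYK, and the 3 genes most alike; not every value is printed. Members and lists were chosen with earlier results of these data known. Some listed genes, such as MS4A2, were not analysed here. Alternatives were 1 probe set per gene, the mean of a gene's probe sets, a level filter, median centring, a repeated quantile normalization, trend, robust variance, array weights, a replicate block, a fit of only the groups compared, and leaving out each array. The fit was tested on simulated data for the combination against mock, where the share of false calls was somewhat above what the threshold allows. Promoters are RefSeq's.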

Additional observations from a re-analysis of the deposited data

Results flagged for a closer look

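The effect of IKKβ(EE) on FCER1G differed between cells with and without IRF5-4D on both probe sets. The interaction was 3.37 (SE 0.25, limma adjusted p = 0.00198) on 1554899_s_at and 2.59 (SE 0.30, limma adjusted p = 0.0256) on 204232_at, in log2 units. The former was called in all 14 alternatives that could give it, and the latter in 10 of 17. Both combination arrays were above all others on each probe set. The IRF5 probe set 205469_s_at was called 0.71 higher in the combination than with IRF5-4D alone (limma adjusted p = 0.0379). On 205468_s_at and 239412_at that difference was -0.07 and 0.23, without a call. The IKBKB probe set 211027_s_at read 1.56 lower in the combination than with IKKβ(EE) alone, also without a call. The part of these construct readings in the interaction was not tested.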

How the results depend on the processing

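Of 2969 results of member probe sets under 18 alternatives, 2935 kept their direction (where called) and their side of the threshold, 33 lost a call, 1 gained one and 0 reversed. With 1 probe set per gene or the mean of a gene's probe sets, the member counts fell from 6 to 3 in the comparisons of IRF5-4D with mock, the combination with mock, IRF5-4D with IKKβ(EE) and the combination with IKKβ(EE), and from 2 to 1 in the combination against IRF5-4D and the interaction, because fewer probe sets were tested, and the same 3 genes, or FCER1G for the latter pair, were called. With only probe sets above the median level the counts were 3 and, for the combination against IRF5-4D, 1, but the interaction had 0. There FCER1G 204232_at read 2.59 with an adjusted p of 0.0845, and its other probe set was below the filter. Leaving out 1 array gave member counts of 3 to 6 for IRF5-4D against mock and against IKKβ(EE), 6 to 7 for the combination against mock, 5 to 6 for the combination against IKKβ(EE), 2 to 2 for the combination against IRF5-4D, 0 to 0 for IKKβ(EE) against mock and 1 to 2 for the interaction; such fits take the lone array to be as variable as the rest. IKKβ(EE) against mock gave 0 member calls under every alternative, with 2786 of all probe sets at an unadjusted p under 0.05 in limma.

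Counts over all probe sets moved more. For IRF5-4D against mock the count of 100 ranged from 42 to 157 over the other alternatives and from 27 to 124 with 1 array left out. For IKKβ(EE) against mock the count of 152 ranged from 56 to 293 over the other alternatives and from 31 to 158 with 1 array left out. For the combination against mock the count of 1049 ranged from 484 to 1639 over the other alternatives and from 558 to 889 with 1 array left out. For the combination against IRF5-4D the count of 422 ranged from 195 to 802 over the other alternatives and from 60 to 443 with 1 array left out. For the combination against IKKβ(EE) the count of 569 ranged from 271 to 894 over the other alternatives and from 191 to 585 with 1 array left out. For IRF5-4D against IKKβ(EE) the count of 244 ranged from 113 to 376 over the other alternatives and from 52 to 280 with 1 array left out. For the interaction the count of 33 ranged from 0 to 99 over the other alternatives and from 6 to 123 with 1 array left out. The labels do not say what the numbers 1 and 3 stand for. Deviations of same-numbered arrays from their group means correlated at -0.059 to 0.327 over the 6 pairs of groups. With the replicate number as a block the member counts stayed at 6, 0, 6, 2, 6, 6 and 2 in the order just given, and the counts over all probe sets became 157, 293, 1639, 802, 894, 376 and 99. The block also called MS4A1 with IKKβ(EE) on 210356_x_at (1.498, limma adjusted p = 0.0346) and 217418_x_at (1.53, limma adjusted p = 0.00924).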
